A study of Mus musculus with 12 samples.

Results

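The livers of HYA-treated mice were compared with those of control mice. HYA is a hydroxylated fatty acid that lactic acid bacteria of the gut make from linoleic acid (LA), and the study gave it to mice on a high-fat diet to ask whether it alters the fatty and fibrotic liver that such feeding produces. The comparison takes in 6 of the 12 sequenced mice, namely 3 that received the high-fat diet with 1% HYA and 3 control mice that received the high-fat diet alone. Every gene that averaged 1 FPKM or more across the 12 mice entered it, which left 11083 of the 54532 genes in the table, and FPKM stands for fragments per kilobase of gene relative to the size of the library. The log2 ratio given for a gene is the difference between HYA-treated and control mice in log2(FPKM + 1), and where a pair of values is given, that of control mice comes first. The mice were male C57BL/6J, an inbred strain, were 5 weeks old at the start and were fed for 26 weeks. Another 3 mice ate a normal diet (ND) and 3 ate the high-fat diet with 1% LA, and their values are given only to place those of the comparison. Each library came from the liver of a separate mouse, and the labels give no litter, cage or day of collection. The RNA was that of whole liver, so that fewer cells of a type and less RNA per cell cannot be told apart.

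Male and female mouse livers differ in the transcription of many genes for secreted proteins, cytochrome P450 enzymes and transporters. The male pattern depends on pulses of growth hormone, which act in hepatocytes through the transcription factor STAT5B, whereas a steadier supply of the hormone maintains the female pattern. In steatohepatitis, hepatocytes store lipid, stellate cells turn into collagen-producing myofibroblasts and macrophages with a lipid-handling program accumulate.

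Between 18355799 and 25220880 fragments per mouse were assigned to genes, which puts 3 fragments on a gene of 2 kb at 0.0607 to 0.0827 FPKM. Markers that define hepatocytes were abundant in all 6 mice, with *Alb*, the gene for serum albumin, at 19066, 21530.5 and 20895 FPKM in control mice and 24160.4, 24899.9 and 24590.2 FPKM in HYA-treated mice. The distance between a pair of mice averaged 31.0 log2 units among control mice (28.1 to 33.3) and 27.9 among HYA-treated mice (26.6 to 30.2). Across the groups it averaged 34.3 (26.5 to 39.4). The closest pair across the groups was thus nearer than any pair within either group, and the ranges overlapped. Fragments on genes made up 90.95% to 96.75% of the total by which the authors scaled the libraries of control mice and 99.06% to 102% of that of HYA-treated mice, so that this ratio moves with the group and its part in the results was measured by rescaling.

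Among the genes with more RNA in HYA-treated mice were 4 for major urinary proteins, 5 for enzymes of the Cyp2c family, 6 for organic ion transporters, 6 for serpins and 3 for carboxylesterases. Among those with less RNA were 4 collagen genes, 2 glutathione S-transferase genes, 6 markers of lipid-associated macrophages and the genes for the epithelial proteins *Ly6d* and *Sprr1a*. At an adjusted p below 0.05 and an absolute log2 ratio above 1 (limma with Benjamini-Hochberg adjustment over the 11083 genes), 18 genes (0.162%) were higher and 16 (0.144%) lower. At the adjusted p alone, 174 genes (1.57%) were higher and 136 (1.23%) lower, so that 276 of these 310 differed by no more than 2-fold on the scale of log2(FPKM + 1), which understates the change of low genes. All 310 genes past the adjusted p, the 34 past both thresholds among them, had ranges of 3 and 3 mice that did not overlap. This separation therefore came with every call and is no added support for it. Among all tested genes, 1407 (12.7%) had the HYA-treated mice above and 983 (8.87%) had them below. Over all tested genes the median log2 ratio was 0.02. When libraries were rescaled to their fragments on genes, that median was −0.06 and the split became 16 higher and 23 lower past both thresholds, and 107 and 324 at the adjusted p alone. With TPM, the values were −0.09, 18 and 33, and 97 and 400.

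Single mice carried much of the statistical weight. Without HYA-treated mouse 2, none of the 310 genes passed the adjusted p (limma), although 1473 genes had an unadjusted p below 0.05, and a fit of only the 6 mice also gave none, with 1723 genes at the unadjusted threshold and a lowest adjusted p of 0.111. Of the 34 genes, 10 passed both thresholds without control mouse 1, 17 without control mouse 3, 13 without HYA-treated mouse 1, 11 without HYA-treated mouse 3 and 33 without control mouse 2. All 34 kept their direction in each of these fits. Control mouse 1 was the lowest of the control mice for 14 of the 18 higher genes and the highest for 12 of the 16 lower genes. Where calls of a gene group are counted below, the counts come from the fit with every mouse and fall to 0 without HYA-treated mouse 2. They are to be read beside the 1.57% higher and 1.23% lower among all tested genes. A single call in a long list sets it little apart from these shares. Counts after rescaling to fragments on genes or with TPM are added where they differ by more than 1.5 times.

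**Figure D1:**
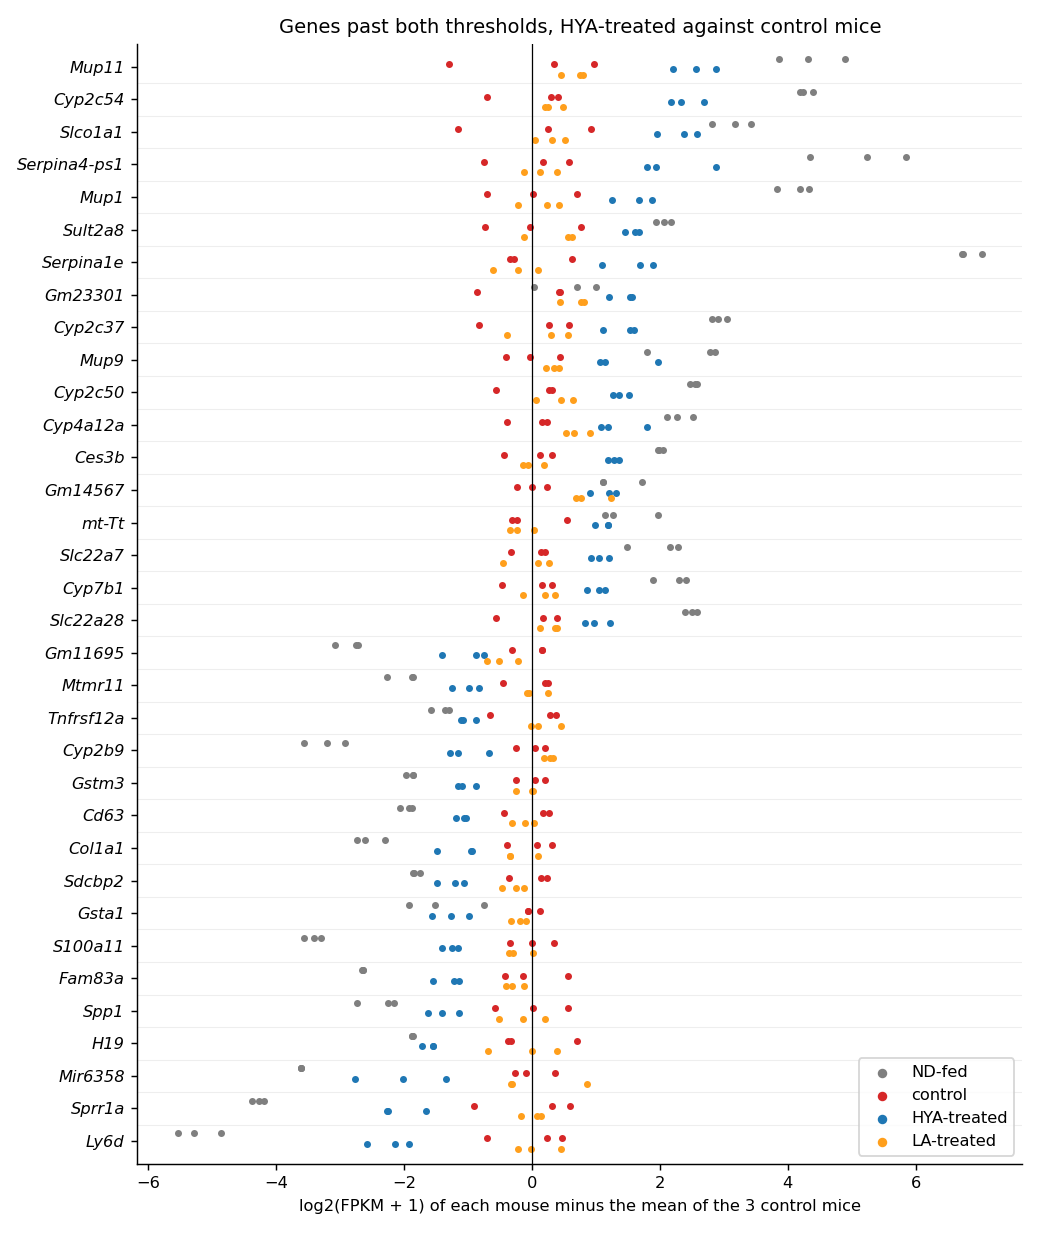
log2(FPKM + 1) of each mouse minus the control mean (horizontal axis) for the 34 genes past both thresholds, with 1 row per gene, 1 point per mouse and a colour per group. The 3 HYA-treated mice lie on 1 side of the 3 control mice in all 34 rows, as for every gene past the adjusted p. The points of LA-treated mice lie mostly near those of control mice.

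**Figure D2:**
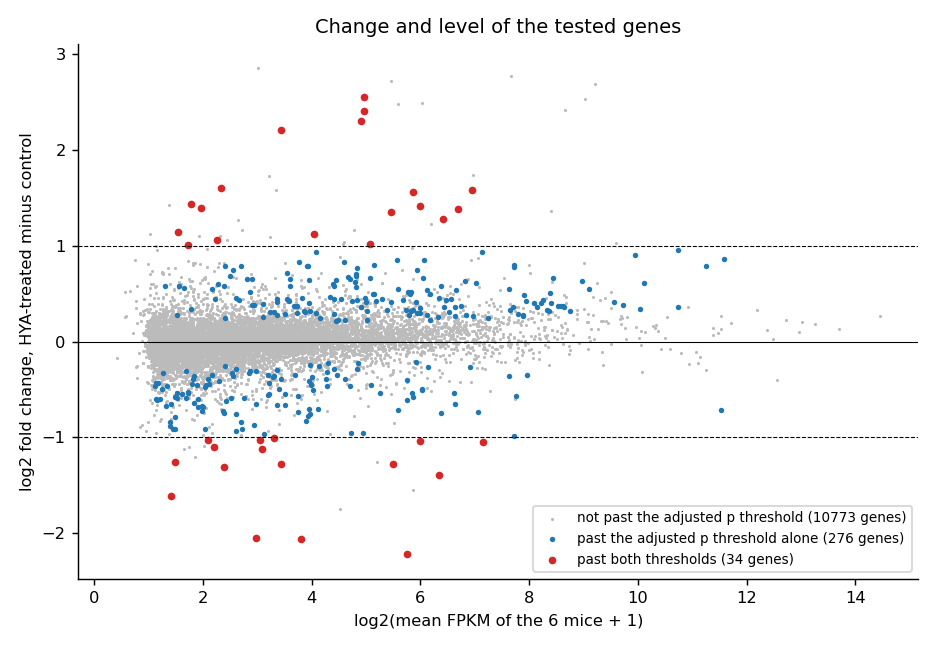
log2 ratio of HYA-treated to control mice (vertical axis) against log2 of the mean FPKM of the 6 mice plus 1 (horizontal axis) for the 11083 tested genes, with 1 point per gene. The 18 higher and 16 lower genes past both thresholds are spread over low and high levels, and most of the 310 genes past the adjusted p lie within 2-fold.

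Of the 18 higher genes, 6 belong to a list of male-biased liver genes. Of the 32 tested members, known for more RNA in male than in female liver, 13 were higher and 0 lower at the adjusted p. The HYA-treated mice lay above the control mice for 24, and the median log2 ratio was 0.94. Over all tested genes, 1.57% were higher, 12.7% had HYA-treated mice above and the median was 0.02. The summed FPKM of the list was 4386, 6598 and 5613 in control mice and 8432, 9592 and 12220 in HYA-treated mice, so that the groups did not overlap. It was 19300 to 26490 in ND-fed mice and 5939 to 6266 in LA-treated mice. Genes for major urinary proteins, *Mup3* among them, belong to this list and weigh heavily in its sum. All 21 *Mup* genes, in the list or not, summed to 3581, 5918 and 4579 FPKM in control mice. In HYA-treated mice they summed to 7593, 8713 and 11320 FPKM. The sum therefore mostly follows the *Mup* genes and is not a result separate from theirs.

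The major urinary proteins are lipocalins that the male liver secretes and that carry pheromones into urine. Of 18 tested *Mup* genes, 4 were higher and 0 lower, 15 had HYA-treated mice above control mice, and the median log2 ratio was 1.67. Among all tested genes, 1.57% were higher and 12.7% had HYA-treated mice above. *Mup3*, an abundant member, was at 1743, 2687 and 2169 FPKM in control mice and 3678, 3594 and 4620.3 FPKM in HYA-treated mice, and its log2 ratio was 0.86 ± 0.15 (SE, n = 3 per group, adjusted p = 0.0269, limma). The levels of *Mup1* were 0.470, 2.90 and 1.43 FPKM in control mice and 4.75, 7.87 and 6.69 FPKM in HYA-treated mice. Those of *Mup9* were 0.558, 1.81 and 1.03 FPKM in control mice and 3.54, 3.35 and 7.10 FPKM in HYA-treated mice. In each, the lowest HYA-treated mouse stood above the highest control mouse. *Mup11* (chr4:60658466-60662411) was at 2.54, 15.9 and 9.98 FPKM in control mice and 38.9, 50.5 and 63.2 FPKM in HYA-treated mice. Each of the 3 was higher past both thresholds, with log2 ratios of 1.61, 1.39 and 2.55. Between 83.5% and 87.2% of the 100-base words in their transcripts also occur in another gene, so that the assignment of reads to 1 member is uncertain. *Mup12*, singled out after its values were seen, did not pass the test despite 192 against 856 FPKM (limma log2 ratio = 2.53, adjusted p = 0.0607), with control mice spread from 41.5 to 344 FPKM.

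*Hsd3b5*, a ketosteroid reductase gene expressed in male liver, had the greatest fold change among tested genes and did not pass. It was at 0.0900, 1.27 and 0.0930 FPKM in control mice and 1.40, 16.99 and 22.4 FPKM in HYA-treated mice (limma log2 ratio = 2.85, adjusted p = 0.0516), so that HYA-treated mouse 1 lay next to control mouse 2 while the other two HYA-treated mice were far above. In ND-fed mice its mean was 161 FPKM.

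Enzymes of the Cyp2c family hydroxylate steroids and drugs and turn polyunsaturated fatty acids into epoxides. Of 11 tested *Cyp2c* genes, 5 were higher and 0 lower, and the median log2 ratio was 0.55. *Cyp2c54* (chr19:40037941-40073811) was at 4.97, 11.03 and 11.9 FPKM in control mice and 43.1, 62.2 and 47.98 FPKM in HYA-treated mice. Its lowest HYA-treated mouse was thus above its highest control mouse by more than the range within either group, and its log2 ratio was 2.40 ± 0.25 (SE, n = 3 per group, adjusted p = 0.0129, limma). *Cyp2c50* (chr19:40089688-40113950) was at 37.3, 69.2 and 67.1 FPKM in control mice and 136, 162 and 144 FPKM in HYA-treated mice, and its log2 ratio was 1.38 ± 0.21 (SE, n = 3 per group, adjusted p = 0.0168, limma). *Cyp2c37* (chr19:39992424-40012243) was at 18.02, 49.3 and 39.6 FPKM in control mice and 72.4, 101 and 97.4 FPKM in HYA-treated mice, with a log2 ratio of 1.42 ± 0.33. The 3 genes are neighbours on chromosome 19, and between 4.7% and 8.93% of their 100-base words occur in another gene. Within 2-fold, *Cyp2c29* (from 96.4 to 182 FPKM) and *Cyp2c23* (from 47.7 to 85.01 FPKM) were also higher.

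Promoter windows, from 250 bases before to 50 bases after the start site, were in the RefSeq table (GRCm38.p6) for 20 of the 34 genes, 9 of the higher and 11 of the lower. Those of *Cyp2c37* (chr19:39992174-39992473, strand +) and *Cyp2c50* (chr19:40089429-40089728, strand +) are shown because both genes were higher and their windows are near copies, with 264 of 295 aligned bases identical and 10 gap bases (86.6% of the alignment). Those of *Serpina1e* (chr12:103956848-103957147, strand -) and *Ces3b* (chr8:105083505-105083804, strand +) are shown because they hold the half-site letters of the hepatocyte factor HNF1, GTTAAT on either strand, which are in capitals.
Cyp2c37: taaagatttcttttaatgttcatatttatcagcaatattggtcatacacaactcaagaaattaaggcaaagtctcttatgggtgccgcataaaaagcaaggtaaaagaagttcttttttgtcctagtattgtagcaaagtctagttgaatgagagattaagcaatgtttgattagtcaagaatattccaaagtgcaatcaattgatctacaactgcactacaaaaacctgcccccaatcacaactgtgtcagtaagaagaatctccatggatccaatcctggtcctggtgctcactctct
Cyp2c50: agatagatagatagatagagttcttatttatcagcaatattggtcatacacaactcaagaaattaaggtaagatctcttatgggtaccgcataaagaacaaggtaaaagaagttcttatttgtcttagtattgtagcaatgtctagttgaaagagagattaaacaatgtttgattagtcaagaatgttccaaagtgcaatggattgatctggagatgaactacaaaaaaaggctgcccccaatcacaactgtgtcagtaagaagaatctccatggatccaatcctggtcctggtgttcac
Serpina1e: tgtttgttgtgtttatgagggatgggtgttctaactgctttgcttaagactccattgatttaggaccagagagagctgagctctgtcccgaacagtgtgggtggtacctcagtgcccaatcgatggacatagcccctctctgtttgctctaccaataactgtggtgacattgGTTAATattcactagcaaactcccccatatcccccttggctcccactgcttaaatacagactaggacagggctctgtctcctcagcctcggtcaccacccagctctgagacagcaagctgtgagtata
Ces3b: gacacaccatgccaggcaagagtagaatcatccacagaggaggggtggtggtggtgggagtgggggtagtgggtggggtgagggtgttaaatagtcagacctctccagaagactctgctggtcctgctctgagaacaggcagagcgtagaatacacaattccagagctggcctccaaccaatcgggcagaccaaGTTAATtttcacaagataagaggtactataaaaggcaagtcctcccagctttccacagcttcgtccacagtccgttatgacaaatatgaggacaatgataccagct
The half-site begins 78 bases before the start site in *Serpina1e* and 56 bases before it in *Ces3b*. It was found in windows of 22.2% of the 9 higher genes, of 18.2% of the 11 lower genes, of 18.5% of the 124 genes with a window among those higher at the adjusted p, and of 5.86% of all 8194 tested genes with a window. The STAT5 letters TTCNNNGAA were in none of the 9, in 13.7% of the 124 and in 8.08% of the tested genes. A match of these letters is a description of the sequence and not a site of binding.

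Serpins of the *Serpina* cluster are secreted protease inhibitors, among them alpha-1-antitrypsin. Of 16 tested *Serpina* genes, 6 were higher and 0 lower, with a median log2 ratio of 0.32. *Serpina1e* (chr12:103946931-103958975), which is male-biased, was at 22.5, 21.5 and 43.01 FPKM in control mice and 59.7, 90.98 and 106 FPKM in HYA-treated mice, and its log2 ratio was 1.56 ± 0.28 (SE, n = 3 per group, adjusted p = 0.0271, limma). Even so, its level in HYA-treated mice stayed far under the 3274 FPKM of ND-fed mice. *Serpina3k*, an abundant plasma serpin, was at 897, 1221 and 1419 FPKM in control mice and 2394, 2046 and 2294 FPKM in HYA-treated mice, and its log2 ratio was 0.95 ± 0.14. *Serpina1c* (from 699 to 1283 FPKM) was higher too. The pseudogene *Serpina4-ps1* was at 1.16, 3.06 and 4.42 FPKM in control mice and 12.9, 11.6 and 25.5 FPKM in HYA-treated mice, with a log2 ratio of 2.20 ± 0.42. *Serpina3k* overlaps *Serpina3m* on the same strand, and 14.8% of the words of *Serpina1e* occur in another gene.

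Carboxylesterases hydrolyse drug and lipid esters. Of 13 tested, 3 were higher and 0 lower. *Ces3b* (chr8:105083753-105093929) was at 35.9, 60.9 and 53.3 FPKM in control mice and 127, 119.8 and 112 FPKM in HYA-treated mice, and its log2 ratio was 1.27 ± 0.16 (SE, n = 3 per group, adjusted p = 0.0129, limma). All 3 HYA-treated mice were therefore at least 112 FPKM and no control mouse was above 60.9 FPKM. *Ces3a* (from 392 to 606 FPKM) and *Ces2a* (from 33.01 to 59.9 FPKM) were higher within 2-fold. Among 21 UGT and SULT conjugation enzymes, 4 were higher and 1 lower, which became 2 and 1 with TPM and after rescaling to fragments on genes. *Sult2a8* (chr7:14410686-14446769), a sulfotransferase for bile acids, was at 35.4, 102 and 58.04 FPKM in control mice and 164, 183 and 192 FPKM in HYA-treated mice, and its log2 ratio was 1.57 ± 0.31 (SE, n = 3 per group, adjusted p = 0.0323, limma). *Ugt2b1*, which encodes a glucuronosyltransferase, was higher as well (limma log2 ratio = 0.61, adjusted p = 0.0293). *Ugt1a9* was the lower member, from 18.8 to 10.7 FPKM, but it shares exons with the other *Ugt1a* genes.

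Transporters of this group take up bile acids, steroid conjugates and other organic ions from blood. Of 27 tested, 6 were higher and 0 lower, with a median log2 ratio of 0.18. These counts became 5 and 1 with TPM and after rescaling to fragments on genes. *Slc10a1*, the sodium-dependent bile acid importer NTCP, was at 131, 187 and 145 FPKM in control mice and 248, 269 and 282 FPKM in HYA-treated mice, and its log2 ratio was 0.80 ± 0.12 (SE, n = 3 per group, adjusted p = 0.0168, limma). *Slco1a1* (chr6:141907282-141946962), a male-biased organic anion carrier, was at 3.36, 17.5 and 10.5 FPKM in control mice and 36.6, 49.7 and 57.4 FPKM in HYA-treated mice, with a log2 ratio of 2.30 ± 0.42. *Slc22a7*, an organic anion transporter, was at 1.46, 2.54 and 2.39 FPKM in control mice and 5.35, 4.88 and 6.12 FPKM in HYA-treated mice, with a log2 ratio of 1.06 ± 0.23. The groups did not overlap for any of the 3. *Slc22a28* was at 0.464, 1.45 and 1.83 FPKM in control mice and 3.24, 4.05 and 2.83 FPKM in HYA-treated mice, with a log2 ratio of 1.00 ± 0.20. The levels of the *Slc22a* genes are low, and the calls of both *Slc22a* genes were lost at the fold threshold when libraries were rescaled to fragments on genes.

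Of 22 genes of bile acid synthesis, 4 were higher and 0 lower, 13 had HYA-treated mice above control mice, and the median log2 ratio was 0.29. Among all tested genes, 1.57% were higher and 12.7% had HYA-treated mice above. The 2 hydroxylases of the alternative pathway were among them. *Cyp7b1* (chr3:18071950-18243338), the oxysterol hydroxylase, was at 14.9, 26.3 and 23.3 FPKM in control mice and 39, 44.1 and 47.4 FPKM in HYA-treated mice, and its log2 ratio was 1.01 ± 0.20 (SE, n = 3 per group, adjusted p = 0.0348, limma). *Cyp27a1*, the sterol hydroxylase that starts this pathway, went up from 161 to 235 FPKM (limma log2 ratio = 0.55, adjusted p = 0.0357). *Slc27a5* and *Slc27a2*, which activate bile acids and fatty acids with coenzyme A, had log2 ratios of 0.44 and 0.37. *Cyp7a1*, the rate-limiting enzyme of the classical pathway, was at 18.5, 17.8 and 6.82 FPKM in control mice and 11.1, 12.95 and 18.8 FPKM in HYA-treated mice (limma log2 ratio = 0.07, adjusted p = 0.951), so that the groups overlapped widely. The sign of its difference turned negative with TPM and with rescaling to fragments on genes, and the call of *Cyp7b1* at the fold threshold was lost with both.

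Other P450 enzymes followed both directions. *Cyp4a12a* (chr4:115299046-115332815), an arachidonic acid hydroxylase of male liver, was at 17.6, 25.9 and 27.5 FPKM in control mice and 82.8, 49.9 and 54.3 FPKM in HYA-treated mice, and its log2 ratio was 1.35 ± 0.21 (SE, n = 3 per group, adjusted p = 0.0168, limma). Of its 100-base words, 35.8% occur in *Cyp4a12b* or another gene. *Cyp4f14* (from 45.1 to 75.4 FPKM), *Cyp2d9* (from 155 to 265 FPKM) and *Cyp2e1*, which oxidizes ethanol and is a marker of pericentral hepatocytes (from 1800.0 to 3087 FPKM), were higher at the adjusted p. The female-biased list went the other way. Of its 12 tested members, 3 were lower and 0 higher (5 and 0 with either rescaling), and the median log2 ratio was −0.34. *Cyp2b9* (chr7:26173411-26210661) was at 96.7, 86.2 and 69.7 FPKM in control mice and 33.5, 36.8 and 52.2 FPKM in HYA-treated mice, and its log2 ratio was −1.04 ± 0.19 (SE, n = 3 per group, adjusted p = 0.0271, limma). *Cyp2b13* (from 4.28 to 1.88 FPKM) and *Rtn4* (from 16.6 to 12.3 FPKM) were the other lower members. *Cyp2a4*, a female-biased steroid hydroxylase, was at 36.95, 50.1 and 16.4 FPKM in control mice and 4.18, 9.97 and 14.6 FPKM in HYA-treated mice (limma log2 ratio = −1.75, adjusted p = 0.0945).

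The growth hormone pathway itself gave a single call. Of 18 tested, 1 was higher and 0 lower, and the median log2 ratio was 0.15. The higher gene was *Igfals*, which encodes the plasma carrier of insulin-like growth factors, at 20.1, 25.7 and 19.2 FPKM in control mice and 31.3, 33.3 and 32.7 FPKM in HYA-treated mice (limma log2 ratio = 0.57, adjusted p = 0.0205). The receptor gene *Ghr* was at 48.6 ± 5.48 and 61.8 ± 5.14 FPKM (SD, n = 3) and missed the threshold (limma log2 ratio = 0.34, adjusted p = 0.0703), and *Stat5b* was at 12.8 and 14.7 FPKM (limma log2 ratio = 0.19, adjusted p = 0.614). *Onecut1*, which encodes a hepatocyte factor that responds to growth hormone, was at 2.81, 3.14 and 3.17 FPKM in control mice and 10.7, 6.76 and 7.04 FPKM in HYA-treated mice (limma log2 ratio = 1.16, adjusted p = 0.146). Among 27 chemokines, cytokines and their receptors, 1 passed, the cytokine receptor gene *Lifr*. It was at 9.87, 10.9 and 10.8 FPKM in control mice and 24.1, 21.5 and 17.9 FPKM in HYA-treated mice, with no overlap, and its log2 ratio was 0.94 ± 0.13 (SE, n = 3 per group, adjusted p = 0.0141, limma).

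The liver secretes most proteins of blood clotting and complement. Of 31 tested genes of coagulation and fibrinolysis, 8 were higher and 1 lower, with a median log2 ratio of 0.25. With TPM, 3 were higher and 1 lower and the median was 0.12, and rescaling to fragments on genes also left 3 higher and 1 lower. Of 26 complement genes, 4 were higher and 0 lower, which became 1 and 0 in both of these settings, with a TPM median of 0.0011. *F11*, the gene for coagulation factor XI, was at 15.7, 17.1 and 15.2 FPKM in control mice and 24.9, 25.98 and 25.8 FPKM in HYA-treated mice (limma log2 ratio = 0.64, adjusted p = 0.0179). *C8b*, a subunit of the membrane attack complex, was at 13.5, 19.3 and 17.01 FPKM in control mice and 30.1, 28.9 and 30.9 FPKM in HYA-treated mice (limma log2 ratio = 0.83, adjusted p = 0.0141). The lower gene was *Thbd*, which encodes the endothelial anticoagulant receptor thrombomodulin (limma log2 ratio = −0.31, adjusted p = 0.0487). The summed level of hepatocyte markers moved with these genes. The sum of 12 markers was 29570 to 34200 FPKM in control mice, 38550 to 40410 FPKM in HYA-treated mice and 45190 to 46950 FPKM in ND-fed mice. *Alb* made up most of it and missed the threshold (limma log2 ratio = 0.26, adjusted p = 0.0676). Among the markers *Cyp2e1* alone passed the test. With TPM and after rescaling to fragments on genes, 1 marker was higher and 1 lower. The median log2 ratio of the markers was 0.23, and 0.11 with TPM. The part of the hepatocyte share in the higher genes was not tested.

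Among the lower genes, those for small proteins of epithelia and of membranes had large differences. *Ly6d* (chr15:74762056-74763620), a GPI-anchored surface protein of squamous epithelium and early B cells, was at 116, 51.02 and 99.3 FPKM in control mice and 18.2, 13.1 and 21.4 FPKM in HYA-treated mice, with a log2 ratio of −2.22 ± 0.31. *Sprr1a* (chr3:92483952-92485895), a cornified envelope protein, was at 30.5, 10.2 and 24.9 FPKM in control mice and 3.39, 3.35 and 5.62 FPKM in HYA-treated mice, with a log2 ratio of −2.06 ± 0.32. Control mice varied by more than 2-fold for both genes. The lowest of them stood above the highest HYA-treated mouse, as for every lower gene past the adjusted p. In ND-fed mice *Ly6d* and *Sprr1a* were at 1.31 and 0.0731 FPKM. *S100a11* (chr3:93520488-93526287), a calcium-binding protein, was at 78.4, 48.4 and 61.7 FPKM in control mice and 26.9, 22.6 and 25.3 FPKM in HYA-treated mice, and its log2 ratio was −1.28 ± 0.16 (SE, n = 3 per group, adjusted p = 0.0129, limma). Its membrane partners of the annexin family were lower as well: *Anxa2* (from 33.9 to 16.9 FPKM) and *Anxa5* (from 167 to 98.9 FPKM). Of 15 tested S100 and annexin genes, 3 were lower and 0 higher. A share of 34% of the words of *S100a11* occurs in another gene, the pseudogene *Gm12854* foremost.

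*Sdcbp2* (chr2:151572622-151590005), a syntenin-like adaptor protein, was at 3.59, 2.04 and 3.31 FPKM in control mice and 0.406, 0.867 and 0.694 FPKM in HYA-treated mice, and its log2 ratio was −1.25 ± 0.16 (SE, n = 3 per group, adjusted p = 0.0129, limma). *Fam83a* (chr15:57985419-58011009), which encodes a signalling scaffold, was at 9.65, 4.40 and 5.54 FPKM in control mice and 2.11, 1.46 and 2.26 FPKM in HYA-treated mice, with a log2 ratio of −1.30 ± 0.21. *H19* (chr7:142575529-142578143), an imprinted noncoding RNA of fetal liver, was at 5.22, 2.06 and 1.96 FPKM in control mice and 0.314, 0.157 and 0.312 FPKM in HYA-treated mice, with a log2 ratio of −1.61 ± 0.29. The 3 genes were thus low in every HYA-treated mouse, and lower still in ND-fed mice, at 0.111, 0.153 and 0.0476 FPKM. *Mtmr11*, a myotubularin-like gene, fell from 4.74 ± 1.45 to 1.78 ± 0.401 FPKM (SD, n = 3), and *Tnfrsf12a*, the receptor for the cytokine TWEAK, from 10.3 ± 3.87 to 4.33 ± 0.460 FPKM, each with a log2 ratio of −1.02. The noncoding gene *Gm11695* was lower, at 13.5, 13.6 and 9.49 FPKM in control mice and 3.93, 6.78 and 6.06 FPKM in HYA-treated mice, but it overlaps *Slc16a5* on the opposite strand, and the sources do not say that fragments were counted by strand.

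The windows of *S100a11* (chr3:93520246-93520545, strand +), *Sdcbp2* (chr2:151572373-151572672, strand +) and *Sprr1a* (chr3:92485832-92486131, strand -) are shown because these are the 3 of the 11 lower genes with a window that hold the AP-1 letters TGACTCA on either strand. They are in capitals and read TGAGTCA here, the same letters on the other strand. These windows hold neither TTCNNNGAA nor GTTAAT.
S100a11: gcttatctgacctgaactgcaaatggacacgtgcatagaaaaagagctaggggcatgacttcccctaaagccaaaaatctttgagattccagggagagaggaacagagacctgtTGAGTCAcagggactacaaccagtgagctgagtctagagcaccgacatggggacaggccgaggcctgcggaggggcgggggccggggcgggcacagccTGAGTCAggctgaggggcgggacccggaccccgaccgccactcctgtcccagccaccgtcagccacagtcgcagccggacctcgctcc
Sdcbp2: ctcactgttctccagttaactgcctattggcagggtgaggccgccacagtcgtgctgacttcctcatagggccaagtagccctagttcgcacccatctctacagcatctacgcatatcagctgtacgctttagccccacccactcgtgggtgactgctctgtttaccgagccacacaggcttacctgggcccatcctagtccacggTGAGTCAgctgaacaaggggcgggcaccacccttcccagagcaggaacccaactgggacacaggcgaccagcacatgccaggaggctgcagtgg
Sprr1a: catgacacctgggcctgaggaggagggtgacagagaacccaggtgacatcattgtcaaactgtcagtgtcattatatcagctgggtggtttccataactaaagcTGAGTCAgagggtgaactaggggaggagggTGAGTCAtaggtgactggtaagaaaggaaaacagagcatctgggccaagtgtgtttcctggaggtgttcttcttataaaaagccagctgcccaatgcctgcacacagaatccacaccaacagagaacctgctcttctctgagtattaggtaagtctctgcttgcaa
The letters begin 136 and 38 bases before the start site in *S100a11*, 44 before it in *Sdcbp2*, and 146 and 116 before it in *Sprr1a*. The share of 27.3% compares with 10% of the 100 genes with a window that were lower at the adjusted p, 4.61% of all 8194 tested genes and 5.95% of the 27025 genes in the table. Another 3 motifs were searched on both strands. The antioxidant response letters TGACNNNGC were in a window of 9.09% of the 11 genes and of 17% of the tested genes, the TEAD letters GGAATG in 18.2% and 14.4%, and the core promoter letters TATAAA in 18.2% and 8.97%. In the 9 higher genes with a window, these 3 shares were 0%, 33.3% and 33.3%, and that of the AP-1 letters was 0%. The TEAD and core promoter letters were thus more frequent in the higher genes than the HNF1 half-site, at 22.2%. Among 20 tested immediate early genes, which include the subunits of AP-1, 0 were higher and 0 lower, and *Fos* (limma log2 ratio = −0.34, adjusted p = 0.487) and *Jun* (limma log2 ratio = −0.28, adjusted p = 0.62) did not pass.

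Genes for enzymes of detoxification and oxidant defence were among the lower ones. *Gstm3* (chr3:107963696-107969283) was at 195, 159 and 218 FPKM in control mice and 102, 87.8 and 84.02 FPKM in HYA-treated mice, and its log2 ratio was −1.04 ± 0.12 (SE, n = 3 per group, adjusted p = 0.0129, limma). *Gsta1* (chr9:78230656-78242684) was at 15.6, 13.5 and 13.4 FPKM in control mice and 4.10, 5.31 and 6.64 FPKM in HYA-treated mice, and its log2 ratio was −1.27 ± 0.24. All control mice exceeded all HYA-treated mice for both, although 81.8% of the words of *Gsta1* occur in another gene. They were the only 2 of 23 tested glutathione S-transferase genes past the adjusted p, against 6 lower with TPM and 4 after rescaling to fragments on genes. The sum of all 26 members, tested or not, overlapped, at 3928 to 4342 FPKM in control mice and 3967 to 4046 FPKM in HYA-treated mice. The median log2 ratio of the 23 tested was −0.09. Of 33 targets of NRF2, the transcription factor of the oxidant response, 5 were lower and 0 higher, 16 had HYA-treated mice below control mice, and the median was −0.14, beside 1.23% lower and 8.87% below among all tested genes. With TPM 11 NRF2 targets were lower, and after rescaling to fragments on genes 10 were. Beside the 2 transferases these were *Srxn1* (sulfiredoxin), *Cbr1* (carbonyl reductase) and *Pgd* (of the pentose phosphate pathway), with log2 ratios of −0.54, −0.45 and −0.37. *Nqo1*, the target most often used as a readout, was at 10.4, 10.1 and 8.86 FPKM in control mice and 6.51, 8.13 and 7.997 FPKM in HYA-treated mice (limma log2 ratio = −0.34, adjusted p = 0.119).

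Lipid-associated macrophages gather where liver tissue is loaded with fat and dead cells. Of 12 tested markers of these cells, 6 were lower and 0 higher, with a median log2 ratio of −0.65. *Cd63* (chr10:128900989-128912822), a lysosomal tetraspanin, was at 6.39, 3.57 and 5.98 FPKM in control mice and 1.70, 1.96 and 2.02 FPKM in HYA-treated mice, and its log2 ratio was −1.10 ± 0.16 (SE, n = 3 per group, adjusted p = 0.0168, limma). *Cd9*, another tetraspanin, was at 16.04, 13.7 and 17.8 FPKM in control mice and 9.89, 8.02 and 9.38 FPKM in HYA-treated mice (limma log2 ratio = −0.74, adjusted p = 0.0172). *Gpnmb*, a lysosomal glycoprotein, fell from 2.37 ± 0.458 to 0.859 ± 0.456 FPKM (SD, n = 3), and *Itgax* (CD11c), *Ctsd* (cathepsin D) and *Spp1* (osteopontin) were lower too. *Trem2*, a defining receptor of these cells, was below the filter, at 1.09, 0.606 and 1.24 FPKM in control mice and 0.469, 0.457 and 0.507 FPKM in HYA-treated mice. *Apoe*, which hepatocytes also express, holds 94.6% to 97.8% of the summed level of the list. The whole sum was higher in HYA-treated mice, at 9282 to 9955 FPKM in control mice and 10470 to 11250 FPKM in HYA-treated mice. Without *Apoe* the sum was lower, at 379 to 499.5 FPKM in control mice and 292.1 to 314.3 FPKM in HYA-treated mice. In ND-fed mice the sum without *Apoe* was 232.6 to 245 FPKM.

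None of 12 Kupffer cell markers and none of 8 markers of infiltrating monocytes passed the adjusted p, with medians of 0.11 and −0.41. *Clec4f*, which defines Kupffer cells, was at 43.8 ± 3.62 and 43.7 ± 7.36 FPKM (SD, n = 3). The panleukocyte gene *Ptprc* was at 1.51 and 1.14 FPKM (limma log2 ratio = −0.23, adjusted p = 0.309). Several markers of the lipid-associated list are shared with other cells, as *Spp1* and *Cd9* are with bile duct cells. Of 4 tested cholangiocyte markers, 2 were lower, *Spp1* and *Epcam* (from 2.38 to 0.863 FPKM). The sum of the whole list of 12 markers, tested or not, was taken without *Spp1*. It was 9.833 to 14.32 FPKM in control mice and 7.959 to 9.232 FPKM in HYA-treated mice. *Krt19*, a keratin of bile ducts, was at 1.18, 0.757 and 0.754 FPKM in control mice and 0.667, 0.684 and 0.611 FPKM in HYA-treated mice. The part of bile duct cells in the lower genes was not tested.

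Fibrillar collagens make up the scar of the fibrotic liver. Of 17 tested collagen genes, 4 were lower and 0 higher, 10 had HYA-treated mice below control mice, and the median log2 ratio was −0.44. Among all tested genes, 1.23% were lower and 8.87% had HYA-treated mice below. With either rescaling 7 were lower. The sum of all 44 collagen genes, tested or not, overlapped, at 230.1 to 279.6 FPKM in control mice and 225.6 to 254.7 FPKM in HYA-treated mice. *Col3a1*, a fibrillar collagen, was at 21.2, 13.96 and 18.9 FPKM in control mice and 10.7, 8.31 and 9.77 FPKM in HYA-treated mice (limma log2 ratio = −0.83, adjusted p = 0.0295), and *Col1a2* was at 6.35, 4.34 and 5.77 FPKM in control mice and 3.15, 2.45 and 3.09 FPKM in HYA-treated mice (limma log2 ratio = −0.73, adjusted p = 0.0316). *Col1a1* was lower past both thresholds and *Col5a2* within 2-fold. Control mouse 2 had the lowest level of the 3 control mice for both of the genes given by mouse. Of 31 matrix glycoproteins and proteoglycans 4 were lower, among them *Lum* (lumican) and *Postn* (periostin), with log2 ratios of −0.59 and −0.53. Of 26 matrix proteases, inhibitors and crosslinkers 1 was lower. With either rescaling the counts of these 2 lists were 7 and 4. *Timp1*, the inhibitor of matrix proteases, was at 4.45, 2.06 and 3.31 FPKM in control mice and 1.51, 0.248 and 1.23 FPKM in HYA-treated mice (limma log2 ratio = −1.12, adjusted p = 0.0607). *Acta2*, the smooth muscle actin of myofibroblasts, was at 3.23 ± 0.473 and 2.07 ± 0.242 FPKM (SD, n = 3) (limma log2 ratio = −0.46, adjusted p = 0.234), and *Tgfb1* at 4.37 and 3.65 FPKM (limma log2 ratio = −0.21, adjusted p = 0.333). None of 29 TGF-beta ligands, receptors and Smads passed. Of 15 tested stellate cell and myofibroblast markers, 2 were lower (4 with either rescaling), and the sum of the list overlapped between the groups, at 158.4 to 197.9 FPKM in control mice and 147.1 to 164.2 FPKM in HYA-treated mice.

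Of 20 tested genes of the cell cycle, 4 were lower and 0 higher, with a median log2 ratio of −0.40. *Stmn1*, a microtubule regulator of dividing cells, was at 5.42, 4.87 and 6.35 FPKM in control mice and 3.30, 2.73 and 2.67 FPKM in HYA-treated mice, and its log2 ratio was −0.75 ± 0.11 (SE, n = 3 per group, adjusted p = 0.0166, limma). *Cdc20*, an activator of the anaphase-promoting complex, fell from 2.56 ± 0.722 to 0.878 ± 0.199 FPKM (SD, n = 3), but it overlaps *Elovl1* on the opposite strand. *Cdkn2c* (from 2.44 to 1.28 FPKM) and *Rrm2* (from 2.99 to 1.95 FPKM), a subunit of ribonucleotide reductase, were the others. *Mki67*, the usual proliferation marker, was below the filter in the mean over all mice, at 1.59, 1.22 and 1.497 FPKM in control mice, 0.672, 0.493 and 0.643 FPKM in HYA-treated mice and 0.396, 0.238 and 0.271 FPKM in ND-fed mice. *Ccnd1*, for cyclin D1, was at 25.4, 24.9 and 18.2 FPKM in control mice and 10.1, 11.6 and 19.8 FPKM in HYA-treated mice (limma log2 ratio = −0.72, adjusted p = 0.0985).

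High-fat feeding loads hepatocytes with triglyceride, which they also synthesize from sugar. Of 24 genes of de novo lipogenesis, 1 was higher and 2 lower, with a median of −0.02. With either rescaling 4 were lower, and with TPM 0 were higher. The sum of the list was 9052 to 10220 FPKM in control mice and 7623 to 8273 FPKM in HYA-treated mice, without overlap, and *Scd1* made up most of it. *Scd2*, a stearoyl-CoA desaturase, was at 8.88, 5.37 and 6.87 FPKM in control mice and 3.50, 3.15 and 2.84 FPKM in HYA-treated mice, and its log2 ratio was −0.93 ± 0.14 (SE, n = 3 per group, adjusted p = 0.0168, limma). *Mlxipl*, the carbohydrate-response factor ChREBP, was the higher gene, from 42.6 to 57.6 FPKM. *Scd1*, a second desaturase of this list, was at 6890.0 ± 561 and 5197 ± 178 FPKM (SD, n = 3) (limma log2 ratio = −0.40, adjusted p = 0.0888), and fatty acid synthase, *Fasn*, at 279.9 ± 17.5 and 259 ± 47.4 FPKM (limma log2 ratio = −0.12, adjusted p = 0.797). Of 42 genes of lipid droplets, lipid uptake and PPAR-gamma targets, 3 were higher and 3 lower, which became 2 and 7 with TPM and 2 and 6 after rescaling to fragments on genes. The lower ones were *Ucp2*, *Hsd17b13*, a lipid droplet enzyme, and *Mogat1*, a monoacylglycerol acyltransferase, with log2 ratios of −0.55, −0.35 and −0.43. *Apoa4*, an apolipoprotein gene that is high in fatty liver, fell from 3687 ± 491 to 2246 ± 268 FPKM (SD, n = 3), though it overlaps the antisense gene *Gm10680*, and *Lipc* (log2 ratio = 0.49), hepatic lipase, and *Apoh* (log2 ratio = 0.38) were higher. Of 39 genes of fatty acid oxidation and ketogenesis 0 were higher and 1 lower (0 and 2 with either rescaling), and of 28 genes of cholesterol synthesis and uptake 0 passed in either direction.

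Among 14 tested genes that were also assayed by RT-qPCR, 3 were lower, all of them collagens, and 0 higher. With TPM 5 were lower, and after rescaling to fragments on genes 6 were. HYA-treated mice lay below control mice for 8 of the 14, beside 8.87% of all tested genes, of which 1.23% were lower. The paper does not say how these genes were chosen, so their direction is not taken as independent evidence. Its RT-qPCR, on 6 mice per group, found less mRNA of *Col1a1*, *Col1a2* and *Col3a1* in HYA-treated than in control mice. These are the 3 lower genes here. It also found less mRNA of *Acta2*, *Tgfb1*, *Timp1* and *Ccl2* (named *Mcp1* there). In the sequenced mice, 3 per group, the latter genes had negative log2 ratios and did not pass the adjusted p. The RT-qPCR was scaled to *Rplp0* and each gene was tested on its own, whereas the adjusted p here covers all tested genes. Missing the adjusted p therefore does not contradict the RT-qPCR. *Ccl2*, the monocyte chemokine, was at 3.84, 2.06 and 6.15 FPKM in control mice and 3.17, 1.70 and 2.06 FPKM in HYA-treated mice (limma log2 ratio = −0.54, adjusted p = 0.372). *Tnf* was below the filter at 0.482, 0.371 and 0.677 FPKM in control mice and 0.598, 0.236 and 0.247 FPKM in HYA-treated mice, and *Il6* had at most 3 fragments in any mouse. None of 33 nuclear receptors, 18 clock genes, 25 genes of antigen presentation and 36 genes of the urea cycle and amino acid catabolism passed the adjusted p. Of the last 36, 34 had a positive log2 ratio, beside 55.6% of all tested genes. HYA-treated mice lay above control mice for 11 of them, beside 12.7% of all tested genes. Their median log2 ratio was 0.26, and 0.14 with TPM. Among 36 interferon-stimulated genes 1 was lower, *Ifi27l2b* (from 39.6 to 19.9 FPKM). Markers of erythrocytes (5 tested) and of sinusoidal endothelium (15 tested) gave no calls.

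**Figure D3:**
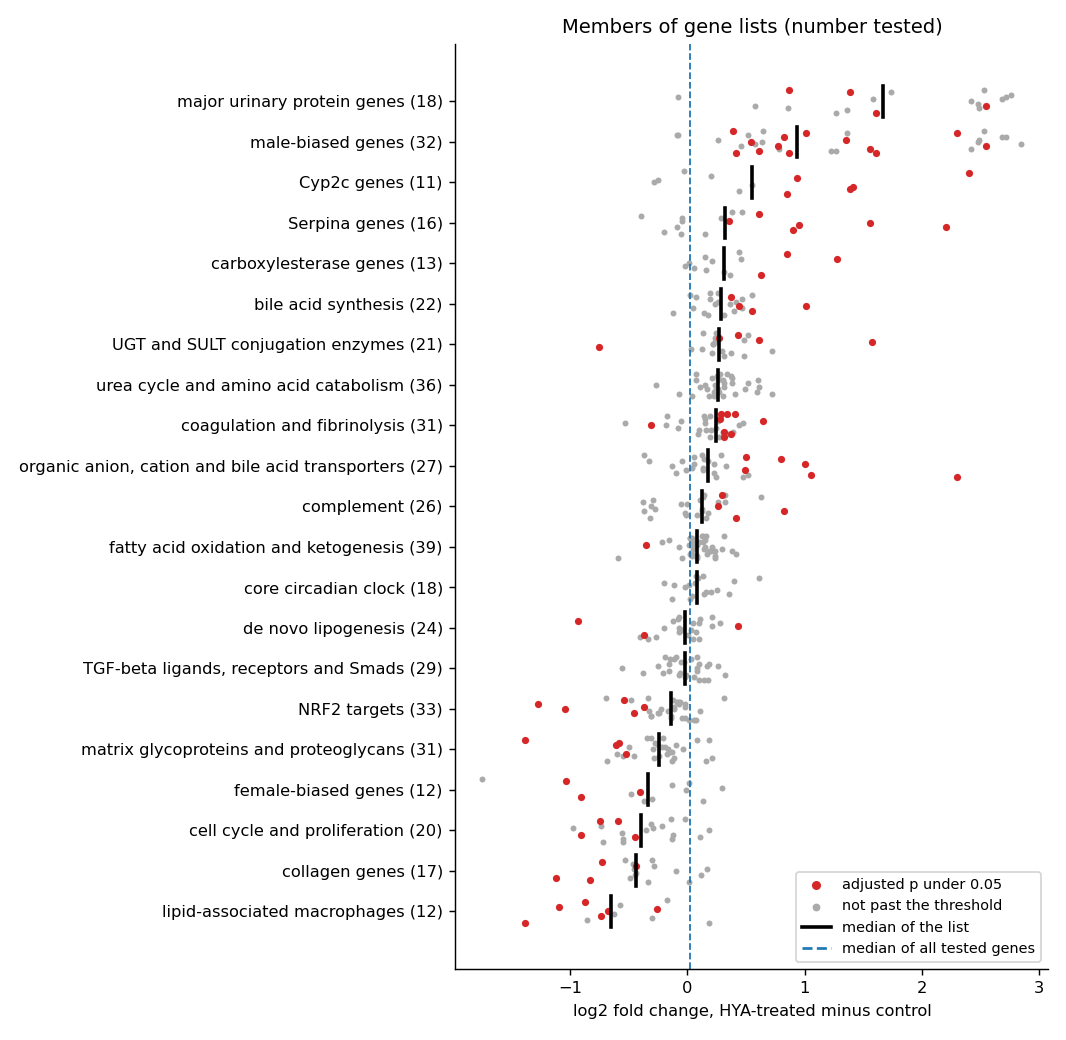
log2 ratio of HYA-treated to control mice (horizontal axis) of the tested members of 21 gene lists, with 1 row per list, 1 point per gene, red for an adjusted p below 0.05 and a bar at the list median. Red points lie to the right in the rows of male-biased and *Mup* genes and to the left in those of collagens and lipid-associated macrophage markers.

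Among the 34 genes are 4 short features with few fragments. *Gm23301* lies within *Rpl17* and had 0 to 7 fragments per mouse, *Gm14567* had 2 to 15 and matches *Polr2k* in all its words, the mitochondrial transfer RNA gene *mt-Tt* had 10 to 37, and *Mir6358* had 2 to 32. The first 3 were higher and *Mir6358* lower. Counting error alone is large at these depths.

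LA, from which HYA is made and from which it differs by added water at a double bond, was given at the same dose and for the same time. For LA-treated against control mice 0 genes passed the adjusted p (limma, lowest adjusted p = 0.341), with 294 at an unadjusted p below 0.05. For HYA-treated against LA-treated mice, 26 genes (0.235%) were higher and 28 (0.253%) lower. These comparisons share mice with that of HYA-treated and control mice, so the values stand side by side only. Over the 18 higher genes the median log2 difference was 1.40 between HYA-treated and control mice, 0.29 between LA-treated and control mice and 1.24 between HYA-treated and LA-treated mice, and 3 passed in the last. Over the 16 lower genes the medians were −1.26, −0.12 and −1.07, and 9 passed. *Cyp2c54* was at 10.2, 10.6 and 12.7 FPKM in LA-treated mice, below all HYA-treated mice by a log2 difference of 2.09 (adjusted p = 0.0183, limma). *Ces3b* was at 46.9, 55.7 and 44.3 FPKM in LA-treated mice (log2 difference = 1.28, adjusted p = 0.0183, limma). *Cyp4a12a* was at 44.4, 34.2 and 37.3 FPKM in LA-treated mice, and the difference of 0.65 from HYA-treated mice, with a 95% interval of 0.19 to 1.11, missed the threshold (adjusted p = 0.143, limma).

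The genes were chosen on differences from control mice, and their levels in ND-fed mice are given as a description. *Sult2a8* was at 232, 252 and 272 FPKM in ND-fed mice, above the 164, 183 and 192 FPKM of HYA-treated mice. *Ly6d*, *Sprr1a* and *Cyp2b9* in HYA-treated mice, at 17.6, 4.12 and 40.9 FPKM, were still above the 1.31, 0.0731 and 8.13 FPKM of ND-fed mice.

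**Figure D4:**
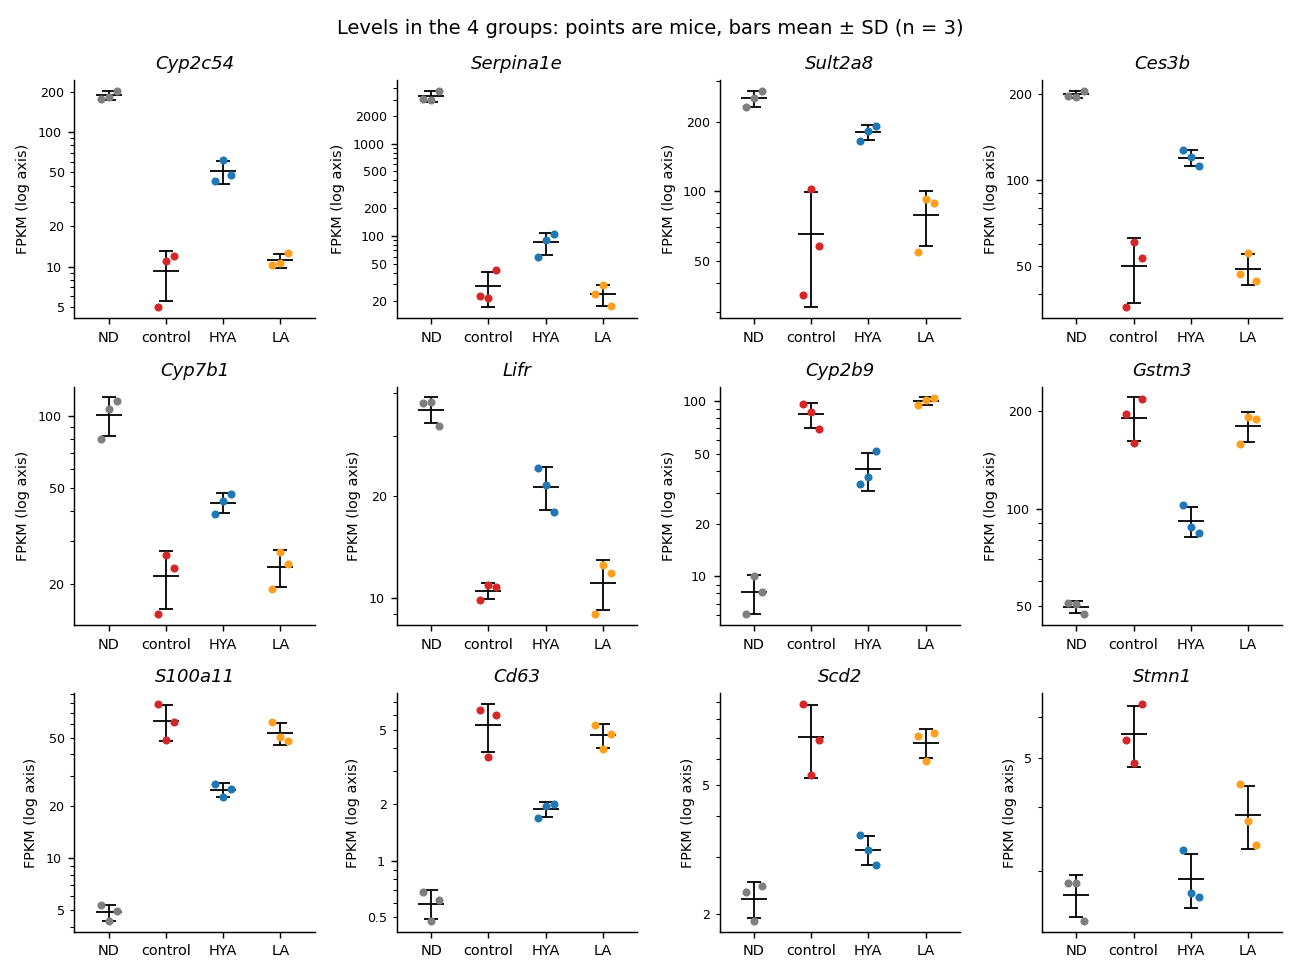
FPKM on a log axis (vertical) of 12 named genes in the 4 groups (horizontal axis), with 1 point per mouse and the mean ± SD. The HYA-treated mice lie apart from the control mice in all 12 panels, as for every gene past the adjusted p, which all 12 genes passed. The LA-treated mice lie near the control mice for *Cyp2c54*, *Ces3b* and *Gstm3*.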

How the data were processed

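Liver RNA of 12 mice, 3 per group, was sequenced in the study. Per the labels, the submitters' processing notes name fastp, HISAT2 2.0.5, featureCounts 1.5.0-p3 and build GRCm38. The deposited values are FPKM per gene, which the authors scaled to their own library totals, and all values in the 6 libraries were whole multiples of 1 fragment within 0.05, so that fragments were recovered from them. The paper's methods speak of TPM.

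Genes that averaged 1 FPKM or more across 12 mice were tested on log2(FPKM + 1) with limma 3.58.1 (R 4.3.3), with 1 fit of all 4 groups, a trended prior variance and Benjamini-Hochberg adjustment. On this scale a fold change understates that of low genes. P-values measure the spread between mice. Calls needed an adjusted p below 0.05, with or without an absolute log2 ratio above 1. The fit was also run on simulated data with independent genes and the same dispersion for all. Such data hold neither genes that vary together between mice nor a scaling that moves with the group, and cannot test their part. Named were all genes past both thresholds, the RT-qPCR genes, the called members of each list (at most 5 by p, or 3 where none was called) and well-known or defining members. The gene lists, members and rules were chosen with earlier results of these data known. Promoter windows came from RefSeq (GRCm38.p6) and were aligned with Biopython 1.88. The 100-base words were those of GENCODE mouse transcripts. Alternatives were a pseudocount of 0.1, no filter, TPM, median-ratio size factors, only 6 mice, a replicate block, voom, no variance trend, leaving out each mouse and, chosen after seeing the data, scaling to fragments on genes. Same-numbered mice did not deviate together.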

Additional observations from a re-analysis of the deposited data

How the results depend on the processing

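All 34 genes kept their direction and an unadjusted p below 0.05 in each of the 15 alternatives, and the adjusted call was more fragile. Against 18 higher and 16 lower past both thresholds and 174 and 136 at the adjusted p alone, a pseudocount of 0.1 gave 17, 23, 147 and 112, no filter on low values 4, 7, 41 and 64 over 26045 genes, TPM 18, 33, 97 and 400, median-ratio size factors 14, 17, 132 and 145, only the 6 control and HYA-treated mice 0, 0, 0 and 0, voom on recovered fragments 19, 32, 236 and 184, no trend 15, 15, 125 and 118, and scaling to fragments on genes, chosen after seeing the data, 16, 23, 107 and 324. With the replicate block the counts were 23, 18, 253 and 196, although same-numbered mice did not deviate together (correlations −0.06, 0.08 and −0.34) and share only a number. Leaving out 1 mouse gave 0 to 36, 0 to 32, 0 to 377 and 0 to 276, with the lowest counts when HYA-treated mouse 2 was removed and the highest when control mouse 2 was. Non-overlapping ranges with HYA-treated mice above and below numbered 1407 and 983, and with TPM 500 and 2361. Of 1800 values of named genes under the alternatives, 1171 kept direction and side of the threshold, 602 kept direction but were no longer called, 20 became called and 7 changed sign. The log2 ratio of *Cyp7a1* went from 0.07 to −0.041 with TPM, −0.019 when scaled to fragments on genes and −0.36 to 0.30 when a mouse was left out, and that of *Clec4f* from −0.012 to between −0.11 and 0.13 when a mouse was left out. The causes of these shifts were not tested.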

Other observations

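Several further genes past the adjusted p lie outside the named-gene rule and were picked after their values were seen. No list of the kynurenine route of tryptophan breakdown was fixed and its other members were not counted, but 5 genes with a place in it were higher in HYA-treated mice: *Kyat1* (from 20.6 to 33.9 FPKM), *Afmid* (from 4.48 to 7.60 FPKM), *Haao* (from 291 to 382 FPKM), *Aadat* (from 25.8 to 35.6 FPKM) and *Ido2* (from 16.1 to 22.5 FPKM). *Kyat1* and *Aadat* encode aminotransferases that form kynurenic acid, *Haao* acts late in the route, and *Ido2* starts it. All 5 had ranges above those of control mice, and their log2 ratios were 0.70, 0.65, 0.40, 0.46 and 0.46. *Afmid* overlaps *Tk1* on the opposite strand.

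Of the lower genes picked in the same way, 8 encode proteins tied to the cytoskeleton or nuclear lamina, and the other genes of this kind were not counted. The one such list, of tubulin genes, had 1 of 12 tested members lower and 0 higher. The picked genes were the intermediate filament genes *Krt8* (from 258 to 172 FPKM), *Vim* (from 10.1 to 6.58 FPKM) and *Lmna* (from 13.5 to 10.4 FPKM), the tropomyosins *Tpm1* (from 9.94 to 6.37 FPKM) and *Tpm4* (from 21.4 to 15.3 FPKM), the nonmuscle myosin *Myh9* (from 26.7 to 20.04 FPKM), and the actin-binding proteins *Tagln2* (from 18.2 to 10.2 FPKM) and *Tmsb10* (from 18.3 to 10.6 FPKM). The tetraspanin *Tspan8* (from 2.65 to 0.936 FPKM) was lower too. These 9 genes had absolute log2 ratios under 1 and ranges below those of control mice, and they are expressed in several liver cell types, so that their cells of origin cannot be told apart here.

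With 3 mice per group, an exact permutation test of a single gene cannot go below p = 0.1. The calls rest on a spread pooled with ND-fed and LA-treated mice. Whole-liver RNA does not separate cell numbers from transcription in each cell. Body weight, feeding and time of collection per mouse were not analysed here. Genes under 1 FPKM on average were left out, and markers of neutrophils, lymphocytes and mesothelial cells fell mostly among them. Members of the *Mup*, *Cyp2c*, *Cyp4a*, *Gsta* and *Ugt1a* families share sequence, and how reads with several matches were counted is not given in the sources used here.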
